A study of Mus musculus with 12 samples.

Results

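The phagocyte NADPH oxidase moves electrons from NADPH across a membrane to oxygen and so makes superoxide. The RNA of 5 genes of its subunits and of Nox4, which encodes a related oxidase, was followed in gonadal white adipose tissue (GWAT) of male mice. The genes were taken by symbol from the table of all genes, and Cybb, Cyba, Ncf1, Ncf4, Rac2 and Nox4 are 6 of the 55281 genes listed there. All 6 were found and all 6 passed the filter on low counts. The series holds 12 libraries of bulk poly(A) RNA sequencing in 4 groups of 3. WT mice carried the floxed Hoip alleles without Cre (Hoip fl/fl AdipoQ.Cre-), and HoipA-KO mice carried the same alleles with AdipoQ.Cre (Hoip fl/fl AdipoQ.Cre+), so the controls were floxed too. Hoip, named Rnf31 in the table, encodes the catalytic subunit of the enzyme complex that makes linear ubiquitin chains, and the adiponectin promoter drives Cre in mature adipocytes, so that macrophages and other cells of the tissue keep the gene. Mice of both genotypes received either a control diet (CD, 14% fat per the labels, slightly less in the methods) or a high-fat diet (HFD, 60% fat) from 6 weeks of age for 16 weeks, and tissue was taken at 22 to 24 weeks. Each library held RNA pooled from 3 mice, so the spread between libraries is a spread between pools.

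In phagocytes the oxidase is built from a pair in the membrane, gp91phox and p22phox, and from subunits that wait in the cytosol. Cybb encodes gp91phox, also named NOX2, which carries the flavin and the haems that pass the electrons, and Cyba encodes p22phox, which stabilises gp91phox and anchors the cytosolic subunits. Ncf1 encodes p47phox, the organiser that is phosphorylated when the cell is stimulated, Ncf4 encodes p40phox, which binds a phosphoinositide of phagosomes, and Rac2 encodes a small GTPase of blood cells that switches the assembled enzyme on. Nox4 encodes a relative of gp91phox that also pairs with p22phox but needs none of the cytosolic subunits, releases mainly hydrogen peroxide, and is known from vascular, kidney and connective tissue cells rather than from phagocytes. In obese adipose tissue, macrophages gather around dying adipocytes, and the oxidase is among the enzymes they are known to carry.

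The genes lie apart in the genome, except for Ncf4 (chr15:78244801-78262580) and Rac2 (chr15:78559167-78572783), which are on the same chromosome (GENCODE M21, GRCm38). Cybb is at chrX:9435252-9487771, Cyba at chr8:122424776-122432930, Ncf1 at chr5:134220053-134229625 and Nox4 at chr7:87246096-87398710. In this annotation none of them overlaps another gene on its own strand, while Cyba and Ncf1 overlap Gm20388 and Gtf2ird2 on the opposite strand, which a stranded library separates only if the counting used strand, and the sources do not state that setting. The 250 bases before the RefSeq start are shown for the 4 genes for which a promoter sequence was at hand, because Cybb, Cyba and Ncf1 moved together below and Nox4 did not follow them. The sequences are RefSeq's on GRCm38.p6, read 5′ to 3′ on the strand of the gene, and capitals mark matches to GAAANNGAAA, the core to which interferon regulatory factors bind, and to CCAAT, on either strand.
Cybb, chrX:9469325-9469574, minus strand: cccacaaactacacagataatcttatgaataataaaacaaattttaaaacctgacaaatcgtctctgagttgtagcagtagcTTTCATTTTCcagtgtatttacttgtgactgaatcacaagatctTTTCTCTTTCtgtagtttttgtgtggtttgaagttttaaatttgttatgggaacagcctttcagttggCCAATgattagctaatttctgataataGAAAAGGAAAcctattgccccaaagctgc
Cyba, chr8:122432941-122433190, minus strand: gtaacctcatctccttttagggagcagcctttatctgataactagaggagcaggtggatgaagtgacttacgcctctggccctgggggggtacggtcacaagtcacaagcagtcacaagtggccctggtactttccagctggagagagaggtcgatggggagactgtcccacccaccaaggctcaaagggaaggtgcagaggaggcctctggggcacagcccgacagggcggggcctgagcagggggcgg
Ncf1, chr5:134229626-134229875, minus strand: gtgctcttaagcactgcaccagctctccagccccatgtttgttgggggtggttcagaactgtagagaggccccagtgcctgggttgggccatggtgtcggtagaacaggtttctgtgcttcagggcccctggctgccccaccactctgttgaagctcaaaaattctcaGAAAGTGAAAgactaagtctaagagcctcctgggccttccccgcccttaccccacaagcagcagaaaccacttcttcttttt
Nox4, chr7:87246399-87246648, plus strand: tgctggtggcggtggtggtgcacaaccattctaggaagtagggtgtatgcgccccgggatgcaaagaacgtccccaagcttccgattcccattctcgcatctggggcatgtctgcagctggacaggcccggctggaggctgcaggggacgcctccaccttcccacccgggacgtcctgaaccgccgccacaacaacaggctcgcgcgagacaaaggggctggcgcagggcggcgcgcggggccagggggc

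The Cybb sequence held 3 matches to GAAANNGAAA, which lie 29 to 20, 124 to 115 and 168 to 159 bases before the start, and 1 CCAAT 56 to 52 bases before it. The Ncf1 sequence held 1 match to GAAANNGAAA, 82 to 73 bases before the start. The Cyba and Nox4 sequences held neither motif. GAAANNGAAA occurs in 2.98% and CCAAT in 33.8% of the 32851 promoter sequences of the same length. GAGGAA, a form of the site bound by PU.1, was searched on both strands as well. It was in none of the 4 windows, against 23.3% of all promoters. Shorter forms were not searched, such as GGAA, which lies within the Cybb match 29 to 20 bases before the start. None of the matches overlapped another. The RefSeq starts of Cybb and Nox4 lie inside the GENCODE gene, which begins further upstream, and a match describes letters only.

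Library totals ran from 30513500 to 60540260 estimated counts, so that 3 counts, taken as the floor, correspond to 0.0533 to 0.0996 CPM (counts scaled to library size, here with TMM factors over the 12 libraries). WT CD replicate 3 is left out of the study's deposited comparison tables, for a reason the sources used here do not give, and without it the biological coefficient of variation was 0.394 in place of 0.514. The comparisons were therefore fitted over 11 libraries, with values over 12 given beside the calls of the 6 oxidase genes that they change, and the level in this library is printed throughout. WT CD replicate 2 held RNA of epididymal epithelium. The summed level of 6 marker genes was 14990 CPM there, against 0.536 and 5.88 CPM in the other WT CD libraries. HoipA-KO HFD replicate 1 held 1327 CPM of these genes and 3268 CPM of 6 mural and smooth muscle genes. Replicate 3 of HoipA-KO CD held 85.52 CPM of the epididymal genes and replicate 3 of HoipA-KO HFD 64.35 CPM. The remaining libraries held at most 5.88 CPM of them. Rnf31 had 20.8, 21.2 and 12.8 CPM in WT CD, in the order of the replicates, and 17.7 to 22.5 CPM in the other 9 libraries. The counts cover whole tissue and the whole transcript, so the genotype cannot be read from it. Adipocyte genes marked the tissue in every library, and their summed level was 7878 to 26540 CPM in WT and 1682 to 3627 CPM in HoipA-KO libraries.

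**Figure D1:**
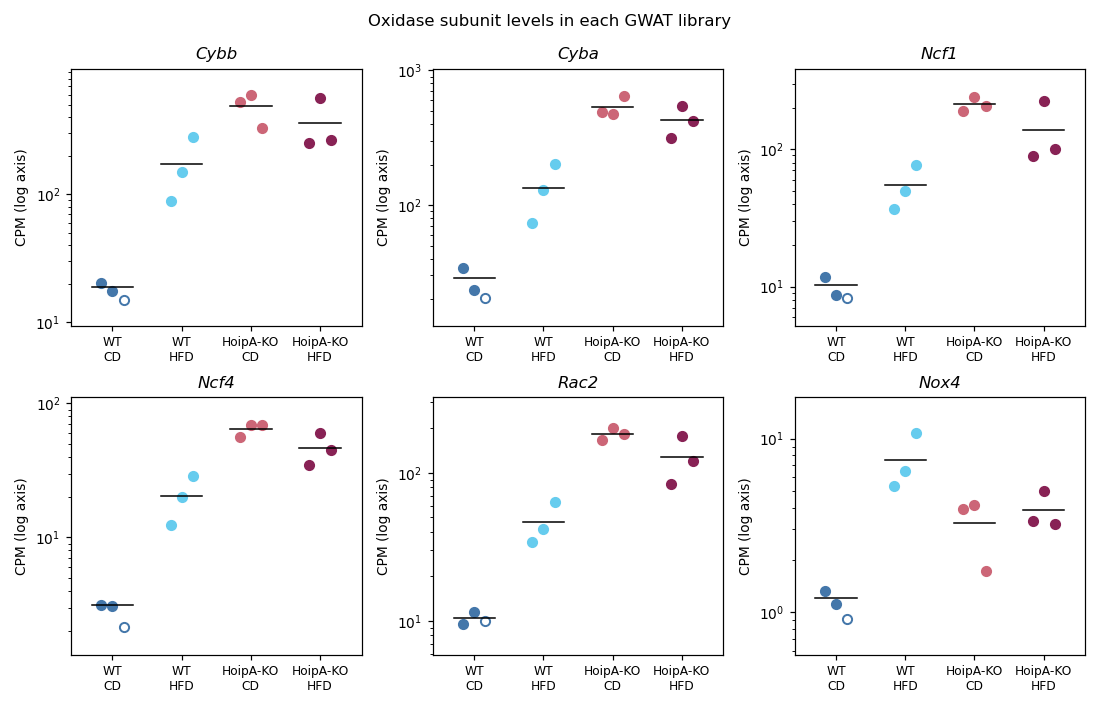
Level of each oxidase subunit in CPM (log axis) in the 12 libraries, by group. Points are libraries of 3 pooled mice in the order of replicates 1 to 3, the open point is WT CD replicate 3, and lines are means without it. Cybb, Cyba, Ncf1, Ncf4 and Rac2 were lowest in WT CD and reached their highest library in HoipA-KO CD, while Nox4 was highest in WT HFD, at 5.35 to 10.8 CPM.

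Cybb was low in lean WT tissue and about 27 times higher in lean HoipA-KO tissue. Replicates 1 to 3 of WT CD had 20.3, 17.5 and 15.0 CPM and those of WT HFD 88.7, 149 and 284 CPM. In HoipA-KO it had 529, 604 and 331 CPM on CD and 252, 564 and 268 CPM on HFD. All HoipA-KO CD libraries lay above all WT libraries of either diet, whereas HoipA-KO HFD replicates 1 and 3 lay below WT HFD replicate 3. The mean of lean WT was 18.9 ± 2.00 CPM (SD, n = 2 pools, replicate 3 left out). Means were 174 ± 99.9 CPM in obese WT (n = 3), and in HoipA-KO tissue 488 ± 141 CPM on CD and 361 ± 176 CPM on HFD (n = 3 each), so the HFD groups spread most for their level.

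Cyba, the partner of gp91phox, followed the same order of groups. It had 34.1, 23.4 and 20.3 CPM in WT CD, 73.3, 129 and 202 CPM in WT HFD, 491, 473 and 645 CPM in HoipA-KO CD, with 316, 544 and 421 CPM in HoipA-KO HFD. For this gene the HoipA-KO libraries lay above the WT libraries on each diet without overlap, and the 2 HoipA-KO groups overlapped.

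Of the cytosolic subunits, Ncf1 had 11.8, 8.69 and 8.30 CPM in WT CD, 37.0, 49.9 and 76.9 CPM in WT HFD, 190, 241 and 205 CPM in HoipA-KO CD, with 89.6, 226 and 99.8 CPM in HoipA-KO HFD. Ncf4 had 3.12, 3.10 and 2.13 CPM in WT CD, 12.4, 19.9 and 28.5 CPM in WT HFD, 56.3, 68.5 and 69.3 CPM in HoipA-KO CD, with 35.0, 60.0 and 45.2 CPM in HoipA-KO HFD. Rac2 had 9.46, 11.4 and 9.98 CPM in WT CD, 33.9, 41.8 and 63.1 CPM in WT HFD, 167, 202 and 184 CPM in HoipA-KO CD, with 83.9, 178 and 121 CPM in HoipA-KO HFD. In all 3 genes WT CD was lowest, WT HFD next, and each HoipA-KO library exceeded every WT library. How many of all genes separate between groups without overlap was not counted, here or for Cybb, Cyba and Nox4. HoipA-KO HFD replicate 2 was the highest of its group for Cybb, Cyba, Ncf1, Ncf4, Rac2 and Nox4, and WT HFD replicate 3 was the highest of its group for the same 6 genes.

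Nox4 was the scarce gene, with 49 to 54 counts in the WT CD libraries, and had another order. It had 1.32, 1.11 and 0.909 CPM in WT CD, 5.35, 6.50 and 10.8 CPM in WT HFD, 3.93, 4.13 and 1.72 CPM in HoipA-KO CD, with 3.36, 4.97 and 3.24 CPM in HoipA-KO HFD. All WT HFD libraries were above all HoipA-KO libraries, and these were above all WT CD libraries. On a scale of CPM per kilobase of exon (union of exons, GENCODE M21), the level of Nox4 was 0.107 to 1.27 over the 12 libraries. Cybb reached 57.1 to 104 CPM per kilobase in HoipA-KO CD, and there Ncf1 had 51.9 to 65.9, Rac2 53.8 to 65.1, Ncf4 27.9 to 34.3 and Cyba 455 to 621. Cyba was thus the most abundant subunit per length, in WT CD too, with 19.5 to 32.8 CPM per kilobase against 1.06 to 3.68 for Cybb, Ncf1, Ncf4 and Rac2. Neighbours in this order, Ncf1 and Rac2, overlapped in all 4 groups. Nox4 amounted to 3.80 to 6.47 CPM per 100 CPM of Cybb in the WT libraries and to 0.519 to 1.34 in the HoipA-KO libraries.

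On CD, where the deletion in adipocytes was compared with WT without a dietary load, all 6 genes were higher in HoipA-KO past the threshold, a p of 0.05 adjusted after Benjamini and Hochberg over 18427 genes in the quasi-likelihood (QL) test of edgeR, against 18.9% of all genes tested called higher. Cybb rose 26.7-fold (log2 fold change 4.74, standard error 0.51, adjusted p = 0.000752, edgeR QL test). Ncf1 and Ncf4 rose 21.3-fold and 21.4-fold, Cyba 19.2-fold and Rac2 18.2-fold, with log2 fold changes of 4.19 to 4.42 and standard errors of 0.33 to 0.43. Only 1.35% of all genes tested had a larger log2 fold change than Cybb, and 1.98% had a larger one than Rac2. Nox4 rose 2.78-fold (log2 fold change 1.48, standard error 0.44, adjusted p = 0.0322 by the same edgeR test). The median log2 fold change was 4.34 for the 6 genes and -0.055 for all genes tested. Cybb, Cyba, Ncf1, Ncf4 and Rac2 passed under all 19 alternatives tried, and Nox4 under 12. A block for the replicate number and a fit of only the groups compared each lost the call of Nox4. Nox4 was not called when WT CD replicate 1 or 2, replicate 1 or 2 of HoipA-KO CD, or replicate 3 of HoipA-KO HFD was left out (log2 fold change 1.24 to 1.68 with any 1 library left out).

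In WT mice HFD raised all 6 genes against CD (9.35% of all genes tested were called higher, edgeR QL test). Cybb rose 9.28-fold (log2 fold change 3.21, standard error 0.51, adjusted p = 0.00933), Ncf4 6.58-fold, Nox4 6.28-fold, Ncf1 5.37-fold, Cyba 4.74-fold and Rac2 4.48-fold, by the same edgeR test. The log2 fold change of Nox4 was 2.65 (standard error 0.44, adjusted p = 0.00966, edgeR). The median log2 fold change was 2.54, against 0.0036 for all genes tested. The comparison shares the WT CD libraries with the one before. Without WT CD replicate 2, which held epididymal RNA, Ncf4 and Rac2 passed and the other 4 did not, while the lowest log2 fold change of any of the 6 genes with 1 library left out was 1.74. In a fit of the WT groups alone, with 5 libraries, none of the 6 passed and none of all genes did.

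On HFD the genotypes differed less. Cyba rose 3.21-fold (log2 fold change 1.68, standard error 0.35, adjusted p = 0.0229), Rac2 2.80-fold (1.49, standard error 0.30, adjusted p = 0.0199), Ncf1 2.58-fold (1.37, standard error 0.38, adjusted p = 0.0490) and Ncf4 2.34-fold (1.23, standard error 0.29, adjusted p = 0.0314) in HoipA-KO against WT, in the edgeR QL test. Thus 4 of the 6 were called higher, against 4.2% of all genes tested. Cybb was not called, with a log2 fold change of 1.08 (95% interval 0.063 to 2.09, adjusted p = 0.141, edgeR), and its libraries overlapped. Nox4 had the opposite sign, with a log2 fold change of -0.95 (95% interval -1.82 to -0.076, adjusted p = 0.133, edgeR), and was not called although its libraries did not overlap. These calls were close to the threshold. Over all 12 libraries Cyba and Rac2 were called (0.531% of all genes tested were called higher), and none of the 6 was called without WT HFD replicate 1, WT HFD replicate 2, HoipA-KO HFD replicate 2 or HoipA-KO HFD replicate 3. When HoipA-KO CD replicate 1 was left out, 2 were called.

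Within HoipA-KO mice HFD brought no call. None of the 6 genes passed, and 0 of the 18427 genes did (0%, edgeR QL test), with 415 genes at an unadjusted p under 0.05, none of them an oxidase subunit, and 7 genes called by DESeq2. The log2 fold changes were -0.44 for Cybb (95% interval -1.46 to 0.57), -0.33 for Cyba (-1.12 to 0.45), -0.62 for Ncf1 (-1.47 to 0.22), -0.48 for Ncf4 (-1.13 to 0.17), -0.54 for Rac2 (-1.20 to 0.13) and 0.23 for Nox4 (-0.65 to 1.10). The upper ends of these intervals for Cybb, Cyba, Ncf1, Ncf4 and Rac2 lie below the log2 fold changes of the same genes in WT, 2.16 to 3.21, so a rise of that size lies outside them. The labels do not state that equal replicate numbers form pairs, so setting HoipA-KO libraries side by side by number describes and tests nothing. Their deviations from the group means correlated over genes with r of 0.139 to 0.499 in the 3 sets of equal number. By number, Cybb, Ncf1, Ncf4 and Rac2 were lower in the HFD library each time. With the replicate number as a block none of the 6 genes was called either.

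**Figure D2:**
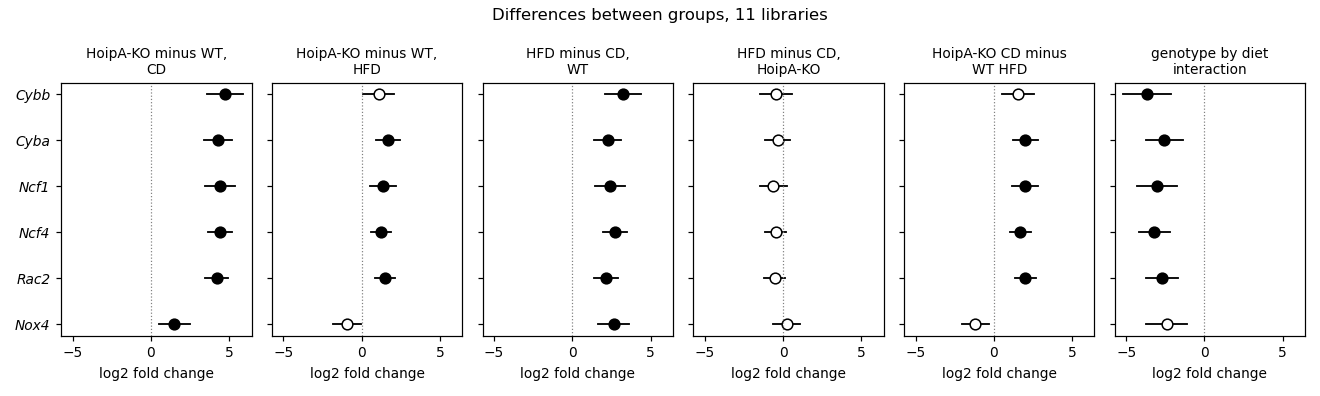
Log2 fold changes of the 6 genes (x axis) in the 5 comparisons of groups and in the interaction, over 11 libraries. Points are estimates, bars are 95% intervals, and filled points passed an adjusted p of 0.05 (edgeR QL test). The points are all right of 0 for HoipA-KO against WT on CD and for HFD against CD in WT, and Nox4 lies left of 0 where HoipA-KO is compared with WT HFD.

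The difference between the effects of genotype on the 2 diets was tested as an interaction, (HoipA-KO HFD minus WT HFD) minus (HoipA-KO CD minus WT CD). It was negative for all 6 genes and called for 5, against 3.58% of all genes tested called lower (edgeR QL test). On a log2 scale the interaction was -3.66 for Cybb (standard error 0.68, adjusted p = 0.0301), -3.20 for Ncf4 (standard error 0.44, adjusted p = 0.0256) and -3.05 for Ncf1 (standard error 0.57, adjusted p = 0.0294), by the same edgeR test. It was -2.70 for Rac2 and -2.58 for Cyba, and -2.42 for Nox4 (standard error 0.59, adjusted p = 0.0589, edgeR), which was not called. Over all 12 libraries all 6 were called (2.7% of all genes tested called lower), with an adjusted p of 0.0486 for Nox4 by edgeR. The call rests on few libraries, since none of the 6 passed when WT CD replicate 2, WT HFD replicate 2, any HoipA-KO CD library, or HoipA-KO HFD replicate 1 or 3 was left out, and Ncf4 and Rac2 alone passed without WT HFD replicate 3.

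Lean HoipA-KO tissue was also set against obese WT tissue. Rac2 was 4.07-fold, Cyba 4.05-fold, Ncf1 3.98-fold and Ncf4 3.26-fold higher in HoipA-KO CD than in WT HFD, with adjusted p of 0.0102 to 0.0149 (edgeR QL test), against 6.78% of all genes tested called higher. Over all 12 libraries the same 4 genes were called, against 1.71%. Cybb was 2.87-fold higher and its libraries did not overlap, but it missed the threshold (adjusted p = 0.0523, edgeR) and passed under 8 of 19 alternatives. Nox4 had a log2 fold change of -1.18 (95% interval -2.05 to -0.30, adjusted p = 0.0703, edgeR), with every HoipA-KO CD library below every WT HFD library. Without WT HFD replicate 2 only Ncf4 and Rac2 passed, and Ncf1 did not pass without WT HFD replicate 1 or HoipA-KO CD replicate 2 either.

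Most markers of macrophages moved with Cybb, Cyba, Ncf1, Ncf4 and Rac2 by genotype on CD and by diet in WT. The summed level of 10 macrophage genes (Adgre1, Cd68, Csf1r, Mertk, C1qa, C1qb, Fcgr1, Lyz2, Itgam and Mpeg1) was 472.9 to 733.6 CPM in WT CD, 2129 to 6533 CPM in WT HFD, 10870 to 14020 CPM in HoipA-KO CD, with 8224 to 12960 CPM in HoipA-KO HFD. On CD 9 of the 10 were called higher in HoipA-KO (18.9% of all genes tested) and on HFD 4 (4.2%, and 0 of the 10 over 12 libraries). Their median log2 fold changes were 4.14 and 1.22. HFD raised 9 in WT (9.35% of all genes) and 0 in HoipA-KO, where 0 of all 18427 genes were called. Between the HoipA-KO groups the marker means went both ways. On CD and HFD they were 547 and 728 CPM for C1qa and 861 and 1018 CPM for C1qb. They were 42.0 and 69.1 CPM for Fcgr1 and 495 and 558 CPM for Adgre1. Cd68, Csf1r, Lyz2, Itgam and Mpeg1 had lower means on HFD, and Mertk had 84.4 and 84.5 CPM. In the interaction 7 were called lower (3.58% of all genes). In bulk tissue, more cells of a type and more RNA per cell cannot be told apart. Per 100 CPM of the macrophage genes, Cybb had 2.77 to 4.83 CPM over the 12 libraries, a range of 1.74-fold, while its CPM spanned 40.2-fold. The same range was 1.92-fold for Cyba, 1.73-fold for Ncf1, 1.5-fold for Ncf4 and 2.19-fold for Rac2, whose CPM spanned 31.8-fold, 29.1-fold, 32.5-fold and 21.4-fold. These ratios were not flat over groups. That of Cybb was 2.77 to 3.17 in WT CD and 3.83 to 4.34 in WT HFD, while that of Cyba was lower in WT HFD (3.09 to 3.44) than in WT CD (4.22 to 4.64). For Ncf1, Ncf4 and Rac2 these 2 groups overlapped. Lyz2 weighs heavily in the sum, with 7498 of 14020 CPM in HoipA-KO CD replicate 2. Within WT HFD, the library with the fewest macrophage transcripts (2129 CPM) was the lowest for each of the 6 oxidase genes and the one with the most (6533 CPM) the highest. How much of the change in these genes goes with the macrophage markers was not tested.

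**Figure D3:**
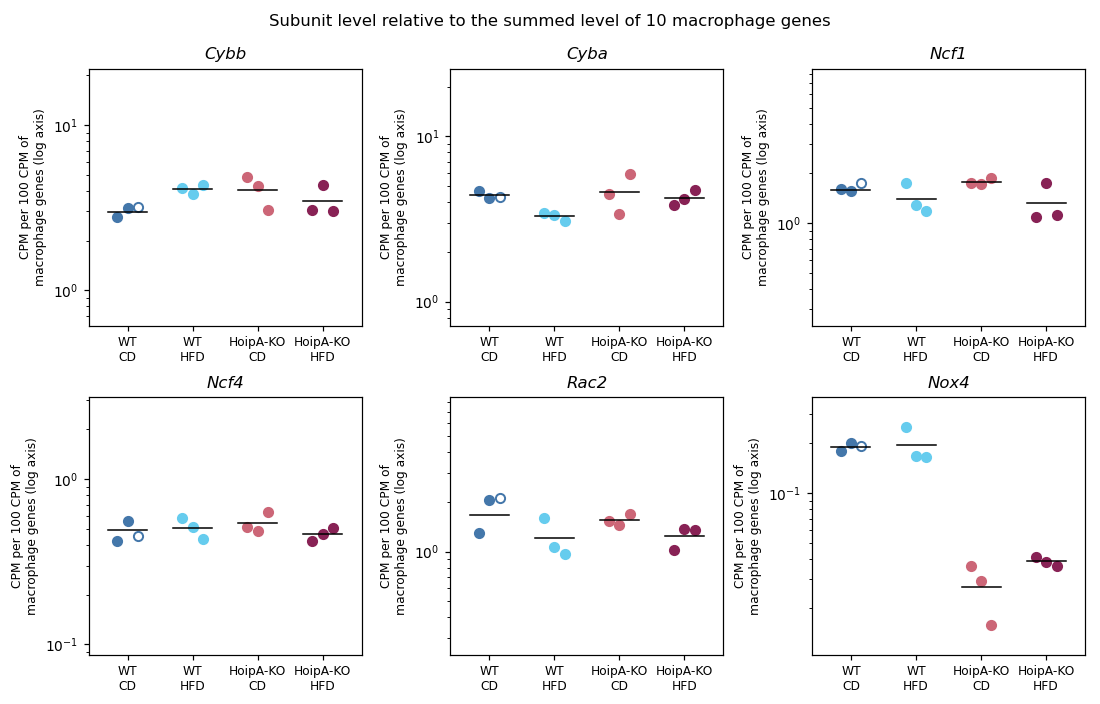
Level of each subunit per 100 CPM of the summed 10 macrophage genes (log axis, each panel spanning the same fold range), by group and library. The open point is WT CD replicate 3 and lines are means without it. Over the 12 libraries Cybb, Cyba, Ncf1, Ncf4 and Rac2 span 1.5-fold to 2.19-fold, with Cybb higher and Cyba lower in WT HFD than in WT CD. Nox4 lies at 0.165 to 0.251 in WT and 0.0158 to 0.0409 in HoipA-KO libraries.

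Nox4 did not keep a ratio to these markers between genotypes. It had 0.165 to 0.251 CPM per 100 CPM of macrophage genes in the WT libraries and 0.0158 to 0.0409 CPM in the HoipA-KO libraries. That range of 15.9-fold was wider than that of its CPM, 11.9-fold. The ratios of WT CD (0.179 to 0.199) and WT HFD (0.165 to 0.251) overlapped. Those of HoipA-KO CD (0.0158 to 0.0359) and HoipA-KO HFD (0.0364 to 0.0409) did not. Neutrophils, the other main carriers of the oxidase, left few transcripts. The summed level of 8 neutrophil genes was 3.93 to 8.14 CPM in WT CD, 14.3 to 26.6 in WT HFD, 12.7 to 27.2 in HoipA-KO CD, with 13.3 to 92.9 in HoipA-KO HFD, where replicate 1 was the highest, and the defining gene Ly6g was listed at 0 in all WT CD libraries and was at most 0.0557 CPM in any library. B cell genes, another cell type that carries the oxidase, summed to 3.50 to 29.6 CPM and none of the 5 was called in any comparison (edgeR). The 5 mast cell genes summed to 20.3 to 30.4 CPM in WT CD, 27.4 to 209.5 in WT HFD, 548.6 to 657.6 in HoipA-KO CD, with 305.8 to 805.8 in HoipA-KO HFD, with 4 called higher in HoipA-KO on CD, 2 on HFD (0 over 12 libraries) and 4 in WT on HFD against CD. Of the 7 neutrophil genes and the 5 T cell genes tested, 1 each was called higher in HoipA-KO on either diet (the T cell gene on HFD not over 12 libraries), and the T cell genes summed to 4.68 to 19.4 CPM. For these lists and the next, the shares of all genes called higher were 18.9% by genotype on CD, 4.2% by genotype on HFD and 9.35% for HFD in WT. On CD, 1 neutrophil or T cell gene is near that share. Of the 6 stromal progenitor genes, from fibroblast-like cells in which Nox4 is known, 3 were called higher in HoipA-KO on CD and 3 in WT on HFD, and none was called between genotypes on HFD, with sums of 827.2 to 1487 CPM in WT CD, 1973 to 3116 in WT HFD and 2931 to 3924 in HoipA-KO. The 8 adipocyte genes went the other way, with 7 called lower in HoipA-KO on CD and 8 on HFD, against 18.8% and 7.62% of all genes tested called lower. Endothelial genes summed to 281.3 to 965.3 CPM, with 2 of 5 called lower in HoipA-KO on CD (1 over 12 libraries) and 3 on HFD. Mural genes summed to 261.4 to 884.5 CPM apart from HoipA-KO HFD replicate 1, and 1 of 6 was called lower on each diet. Over 12 libraries the calls on HFD between genotypes were 0 for endothelial and mural and 7 for adipocyte genes. Of the 6 epididymal genes 1 was called lower in HoipA-KO on CD. For the mural and epididymal genes, 1 of 6 on CD is near the 18.8% of all genes called lower. The part of these cell types in the change of Nox4 was not tested.

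Over the 12 libraries, log2(CPM + 1) of Cybb, Cyba, Ncf1, Ncf4 and Rac2 correlated with Pearson's r of 0.971 to 0.992 in every pair, and Nox4 correlated with them with r of 0.492 to 0.655. The points share libraries and group differences, so these values describe and test nothing. Among 10270 other genes with a mean of at least 10 CPM, the 5 most like Cybb over the 12 libraries were Cd200r1 (r = 0.998), Itgam (0.998), Tlr13 (0.997), Cd53 (0.997) and Naip2 (0.996), of which 4 were also among the 5 most like it over 11 libraries. Ncf4, Ncf1, Rac2 and Cyba ranked 122, 131, 276 and 335 by likeness to Cybb over the 12 libraries. Over 11 libraries they ranked 184, 188, 346 and 492, so many other genes followed Cybb more closely than these subunits did. Itgam encodes the integrin chain CD11b of myeloid cells, Tlr13 a receptor for bacterial ribosomal RNA, Cd53 a tetraspanin of leukocytes and Naip2 a sensor of bacterial secretion systems. The 5 most like Nox4 were Mgat4a (r = 0.956), Pdk4 (0.942), Dcbld2 (0.935), Tmem127 (0.927) and Fbn1 (0.925), 3 of them also over 11 libraries. Pdk4 encodes a kinase that restrains pyruvate dehydrogenase, and Fbn1 encodes fibrillin, a protein of the extracellular matrix.

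The other genes of the pathway were read from lists of 45 genes. Of 4 genes of direct partners of the complex, 3 were called higher in HoipA-KO on CD and 2 on HFD (the share of all genes called higher is 18.9% and 4.2%, as above), and over 12 libraries 3 and 0. Their median log2 fold change on CD was 0.80. Cybc1, a chaperone of gp91phox, rose by 0.94 on CD and 0.61 on HFD. Hvcn1, a proton channel that balances the charge moved by the oxidase, rose by 2.76 on CD and 1.55 on HFD, and was not called between diets in WT (0.26). The Hvcn1 libraries of HoipA-KO HFD split, with 64.2 and 63.7 CPM in replicates 1 and 3 and 189 CPM in replicate 2. Rac1, the widely expressed relative of Rac2, rose by 0.67 on CD, while Rap1a was not called in any comparison.

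All 12 genes of oxidase activation were called higher in HoipA-KO on CD (18.9% of all genes tested) and 10 in WT on HFD against CD (9.35%). By genotype on HFD 3 were called higher (4.2%), and in the interaction 9 were called lower (3.58%). Over 12 libraries these counts were 11, 10, 1 and 8, against 15.6%, 9.05%, 0.531% and 2.7% of all genes. Their median log2 fold change on CD was 3.14, against -0.055 for all genes tested. Dock2, an exchange factor for Rac proteins, rose by 4.55 on CD in HoipA-KO and by 3.34 on HFD in WT. Vav1, another exchange factor, rose by 3.94 and 2.71, and Prex1 by 3.13 and 2.19. Prkcb, a protein kinase C that phosphorylates p47phox, rose by 3.90 on CD in HoipA-KO, and in WT on HFD it had 1.96 without a call (called over 12 libraries). Nrros, which limits the abundance of gp91phox, rose by 3.21 and 2.11. The 3 genes called by genotype on HFD were Vav1, Arhgdib, an inhibitor that holds Rac proteins in the cytosol, and Coro1a, an actin-binding protein that associates with the cytosolic subunits.

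Of 5 transcription factors known to act on oxidase genes, Spi1 and Irf8 were called higher in HoipA-KO on CD, where the share of all genes was 18.9%. The shares called higher were 4.2% by genotype on HFD and 9.35% for HFD in WT. The median of the 5 on CD was 1.66. Spi1, which encodes PU.1, had 10.4, 8.49 and 6.57 CPM in WT CD, 37.8, 72.2 and 119 in WT HFD, 209, 238 and 269 in HoipA-KO CD, with 154, 246 and 206 in HoipA-KO HFD. In HoipA-KO its log2 level rose by 4.70 on CD and, on HFD, by 1.42 (the latter not called over 12 libraries), and by 3.03 on HFD in WT. Irf8, an interferon regulatory factor of myeloid cells, rose by 2.89 in HoipA-KO on CD and by 2.25 in WT on HFD and was not called between genotypes on HFD (0.69). Irf1 (0.013), Cebpb (0.71) and Cebpe (1.66) were not called on CD, and Cebpe was at 0.0731 to 0.409 CPM.

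Among the other NADPH oxidase genes, 5 of 9 passed the filter, and Nox1, Nox3, Noxa1 and Duoxa2 did not, with at most 0.612 CPM in any library. Duox1 and Duoxa1, a dual oxidase and its maturation factor, were, like Nox4, highest in WT HFD. Duoxa1 had 3.48, 1.28 and 1.37 CPM in WT CD, 16.5, 15.1 and 12.1 in WT HFD, 4.13, 5.30 and 5.43 in HoipA-KO CD, with 5.87, 3.77 and 5.57 in HoipA-KO HFD. It rose by 2.63 on the log2 scale with HFD in WT (adjusted p = 0.00677) and fell by 1.51 in HoipA-KO against WT on HFD (adjusted p = 0.0267, edgeR QL test), and Duox1 rose by 2.41 and fell by 1.82. Over 12 libraries the calls on HFD between genotypes were lost for both, and Duoxa1 was called higher in HoipA-KO on CD (1.28, against 1.10 without a call over 11). Poldip2, a partner of Nox4 and p22phox, fell in HoipA-KO by 0.79 on CD and by 0.57 on HFD, the latter not over 12 libraries. Of the 5 tested genes, 2 were called higher with HFD in WT (9.35% of all genes) and 3 lower by genotype on HFD (7.62%). On CD 1 was called lower in HoipA-KO, near the 18.8% of all genes called lower, and the median of the 5 was 0.13.

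**Figure D4:**
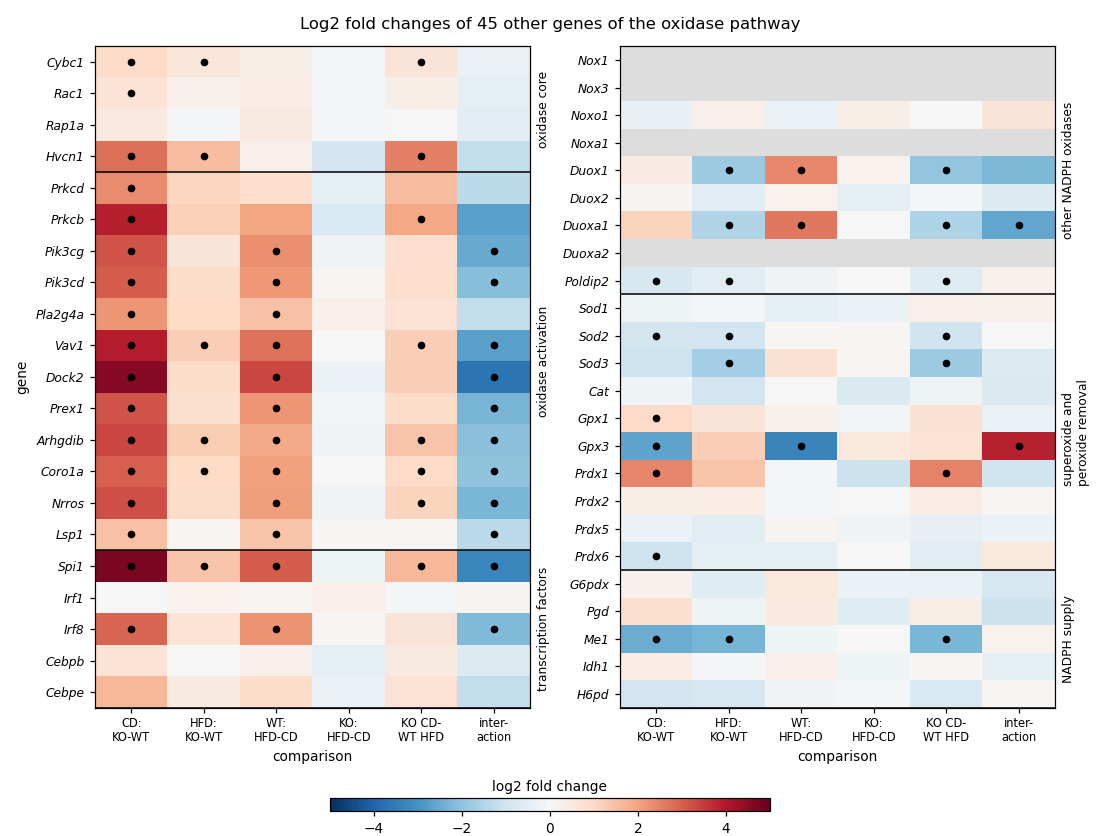
Log2 fold changes (colour) of 45 other genes of the pathway in 6 comparisons over 11 libraries, with KO for HoipA-KO. Dots mark an adjusted p under 0.05 (edgeR QL test) and grey marks genes that did not pass the filter. All 12 activation genes are dotted for HoipA-KO against WT on CD, where 18.9% of all genes tested were called higher. No gene is dotted for HFD against CD in HoipA-KO, where none of all genes was called.

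Genes that remove superoxide and peroxide did not move as a block. On CD 2 of 10 were called higher in HoipA-KO and 3 lower, near the shares of all genes given above (18.9% higher, 18.8% lower), and on HFD 2 were called lower (7.62% of all genes), with a median log2 fold change of -0.27 on each diet. Over 12 libraries 1 was called lower on each diet. Prdx1, a peroxiredoxin, rose by 2.43 on CD and had 611, 676 and 236 CPM in WT CD, 498, 581 and 754 in WT HFD, 2845, 4362 and 2838 in HoipA-KO CD, with 951, 3054 and 859 in HoipA-KO HFD. As with Hvcn1 and Cybb, replicate 2 of HoipA-KO HFD was far above replicates 1 and 3. Gpx1 rose by 0.97 on CD, whereas Sod2, the mitochondrial superoxide dismutase, fell by 0.90 on CD and, on HFD, by 0.94, the latter not called over 12 libraries. Sod3, the extracellular enzyme, fell by 1.71 on HFD and was not called on CD (-1.03). Prdx6 fell by 1.02 on CD, a call that was lost over 12 libraries. Gpx3 was called lower on CD over 11 libraries and not over 12, and its WT CD libraries were far apart, with 6048 CPM in replicate 2 and 1352 and 383 CPM in replicates 1 and 3. Of 5 enzymes that supply NADPH, Me1, the cytosolic malic enzyme of lipogenic cells, fell by 2.47 on CD and by 2.31 on HFD, and G6pdx (0.20 and -0.62), Pgd (0.81 and -0.27), Idh1 (0.37 and -0.11) and H6pd (-0.94 and -0.83) were not called on either diet over 11 libraries, while over 12 Pgd was called higher on CD (1.06). The median of these 5 on CD was 0.20.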

How the data were processed

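Bulk poly(A) RNA sequencing (Illumina stranded TruSeq) of GWAT from 4 groups of 3 libraries was used. The authors trimmed reads with Trim Galore 0.6.7, aligned them with STAR 2.7.10a and deposited Salmon 1.5.2 estimated counts per gene without normalization. The labels name GRCm38 and the methods a human assembly, while the identifiers are mouse genes. The deposited DESeq2 comparison tables, which hold fold changes and p-values, were not used.

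Estimated counts were rounded, filtered with filterByExpr, scaled by TMM and fitted with edgeR 4.0.16 in R 4.3.3 (limma 3.58.1), in 1 model of the 4 groups without a block, over 11 libraries as in the deposited comparisons. Contrasts used the quasi-likelihood (QL) test across all genes with Benjamini-Hochberg adjustment at 0.05 (prior count 0.125). Standard errors are from the model. Fewer counts give less precise values. Scripts were tested on simulated data. Alternatives were DESeq2 size factors, library size, no filter, all 12 libraries, protein-coding genes only, a replicate block, DESeq2 1.42.0, only the groups compared, and leaving out each library. Of 15 pairs of libraries with the same replicate number, 6 had a correlation of deviations from the group means over 0.1 (-0.371 to 0.499). Among them were all 3 pairs of HoipA-KO CD and HFD. WT HFD replicate 1 also reached 0.307 with HoipA-KO CD replicate 1 and 0.371 with HoipA-KO HFD replicate 1. Libraries with different numbers were not compared and the labels state no pairing, so the numbers were not taken to show one.

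The members, lists and tests were chosen with earlier results of these data known. Named genes are the 6 members, all genes of the 6 pathway lists (1 gene of them is not reported here) and 10 marker lists, Rnf31, and the 5 genes most like Cybb and Nox4. Positions and exon lengths are from GENCODE M21 and promoters from RefSeq.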

Additional observations from a re-analysis of the deposited data

Results flagged for a closer look

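The effect of genotype differed between the diets for 5 oxidase genes by the test of the interaction (edgeR QL test). The log2 fold change of the interaction was -3.66 for Cybb, -2.58 for Cyba, -3.05 for Ncf1, -3.20 for Ncf4 and -2.70 for Rac2, with adjusted p of 0.0256 to 0.0373 (edgeR). In each gene the rise in HoipA-KO was larger on CD, where the estimates were 18.2-fold to 26.7-fold, than on HFD, where they were 2.11-fold to 3.21-fold. The interaction of these genes kept its sign under all 18 alternatives and passed the threshold in 9 to 11 of them. No sample was tested as an outlier, since each group has 3 libraries at most.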

How the results depend on the processing

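Alternatives were 8 changes of processing and 11 fits that left out 1 library each. On CD between genotypes the members called were 5 to 6 with 1 library left out. For HoipA-KO against WT on HFD, where 4 members were called, there were 2 over all 12 libraries, 2 with only the groups compared, and 0 to 5 with 1 library left out. For HFD against CD in WT there were 0 of 6 with only the groups compared, where 0 genes of all were called, and 2 to 6 with 1 library left out. For HoipA-KO on CD against WT on HFD there were 2 to 5 with 1 library left out and 6 by DESeq2, where Cybb was called higher and Nox4 lower (-1.17), and for HFD against CD in HoipA-KO 0 in every fit. For the interaction there were 0 to 6 with 1 library left out, and the replicate block left 2 of the 5. Fits on only the groups compared hold 5 or 6 libraries and those with 1 left out hold 10, so fewer degrees of freedom remain. Where WT CD replicate 1 or 2 was left out, the lone WT CD library was assumed to vary like the other groups. The replicate numbers were not taken to pair the samples in any comparison, and for HFD against CD in HoipA-KO the block changed no call. Nox4 for HFD against CD in HoipA-KO had -0.068 to 0.459 with 1 library left out, reversed without HoipA-KO CD replicate 3 (-0.068) or HoipA-KO HFD replicate 2 (-0.014), and was called in no fit.

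Over all genes, calls for HoipA-KO against WT on HFD were 2179 and became 503 over 12 libraries, 4455 with DESeq2 and 279 to 3797 with 1 library left out. For the interaction they were 721 and became 377 with the block, 2374 with DESeq2 and 1 to 3668. For HFD against CD in WT they were 2731 and became 1502 with the block, 4551 with DESeq2 and 1045 to 5985. For HoipA-KO CD against WT HFD they were 2920 and became 999 over 12 libraries, 4956 with DESeq2, 4610 with only the groups compared and 493 to 4416, and for HoipA-KO against WT on CD they were 6947 and became 4208 with only the groups compared. Library size in place of TMM raised the higher calls from 774 of 2179 to 1279 of 2412 on HFD between genotypes and from 1723 of 2731 to 2108 of 2785 in WT between diets. With protein-coding genes only, log2 fold changes of the genes in both fits shifted by a median of -0.14 on CD between genotypes. In the interaction that median shift was 0.11. With library size in place of TMM it was 0.11 in HoipA-KO between diets. No member changed sign with these scalings. The biological coefficient of variation was 0.394, and 0.514 over 12 libraries.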
